A study of Homo sapiens with 5 samples.

Results

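The 9 genes described here keep the ends of human chromosomes: TERT, the catalytic subunit of telomerase; TERF1, TERF2, TERF2IP, TINF2, ACD and POT1, which encode the 6 subunits of shelterin; and ATRX and DAXX, which place histone H3.3 at telomeres. They were chosen by name from the 27992 gene names of the deposited count table, and all 9 were found in it and in the deposited table of TPM (transcripts per 1000000, a level corrected for gene length). The study asked how the level of the transcription factor E2F1 relates to cell fate in U2OS, a human osteosarcoma cell line. Cells carrying pTRIPZ-YFP-ER-E2F1, a doxycycline-inducible fusion of YFP, the hormone-binding part of the oestrogen receptor and E2F1, were sorted by flow cytometry into YFP-high, YFP-medium, YFP-low and YFP-negative fractions, and parental U2OS cells without the construct gave the fifth library. Per the labels, all 5, parental cells included, were grown in 8% fetal bovine serum and given 500 ng/ml doxycycline for 48 h, after which 90 nM OHT (4-hydroxytamoxifen, which activates the fusion) was present for 20 h more. The labels do not say whether the construct line is 1 clone.

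Each group has 1 library, so no difference has a replicate check and none was tested. Intervals are exact 95% intervals for counting error alone. Levels are CPM (gene reads per 1000000, scaled by the trimmed mean of M values, TMM), over libraries of 70.7 to 76.5 M gene reads. A gene was analysed with at least 1 CPM in 1 library, which 15109 genes reached, and was called higher or lower past 2-fold with an interval that excluded no change. E2F1 had 86.1 CPM in parental cells, 105.98 in the YFP-negative, 163 in the YFP-low, 361 in the YFP-medium and 996 in the YFP-high fraction, in the order of the gates. Counts per gene name do not tell E2F1 reads of the construct from those of the cells' own gene. Of 9 osteoblast markers, COL1A1, SPARC, RUNX2, ALPL and SPP1 were analysed and summed, with the rest, to 1554 to 4673 CPM by library, whereas SP7, BGLAP and IBSP had at most 7 reads in any. COL1A2 had 16 to 31 reads and was not analysed. Most of the sum was COL1A1 and SPARC. COL1A1 had 750 CPM in YFP-high, 1254 CPM in YFP-negative and 3271 CPM in parental cells. SPARC had 749, 952 and 1333 CPM in the same order. None of 5 leukocyte markers was analysed, and they summed to at most 0.697 CPM. Of 5 epithelial markers 4 were analysed and summed to 454 CPM in YFP-high and 538 CPM in YFP-negative cells; EPCAM was called higher, with 11.5 CPM in YFP-high and 3.27 CPM in YFP-negative cells, while CDH1 had 2.52 CPM against 5.13 CPM, KRT18 had 240 CPM against 339 CPM, KRT8 had 200.2 CPM against 190.2 CPM and KRT19 had no read. Of 4 endothelial markers VWF and KDR were analysed, and the list summed to 2.33 CPM in YFP-high and 0.803 CPM in YFP-negative cells, of which KDR had 1.88 and 0.0360 CPM; KDR passed the filter through the YFP-high library alone. The part of these markers in the results was not tested.

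Telomeres are repeats that shorten at each division unless they are rebuilt. Most tumours rebuild them with telomerase, while U2OS is a textbook line of alternative lengthening of telomeres (ALT), which copies telomeres by recombination without telomerase and commonly goes with loss of ATRX function; U2OS is reported to lack ATRX protein. Shelterin coats the repeats and keeps the cell from treating the ends as breaks: TERF1 and TERF2 bind the double-stranded repeat, POT1 the overhang, and TINF2 and ACD bridge them.

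TERF2 was higher with each YFP gate. TERF2 had 36.8 CPM in parental cells, 39.9 in the YFP-negative, 59.9 in the YFP-low, 103 in the YFP-medium and 150 in the YFP-high fraction. Among the 8 genes of the set that were analysed, TERF2 alone was called in any comparison against YFP-negative or parental cells. Of all genes, 31.7% were called in YFP-high and 12% in YFP-medium against YFP-negative cells, and 36.2% in YFP-high against parental cells. The partners of TERF2 inside shelterin had ratios between 0.701 and 1.36 in YFP-high against YFP-negative cells. ATRX had its lowest level in YFP-high cells, and TERT had 5 reads or fewer in every library.

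**Figure D1:**
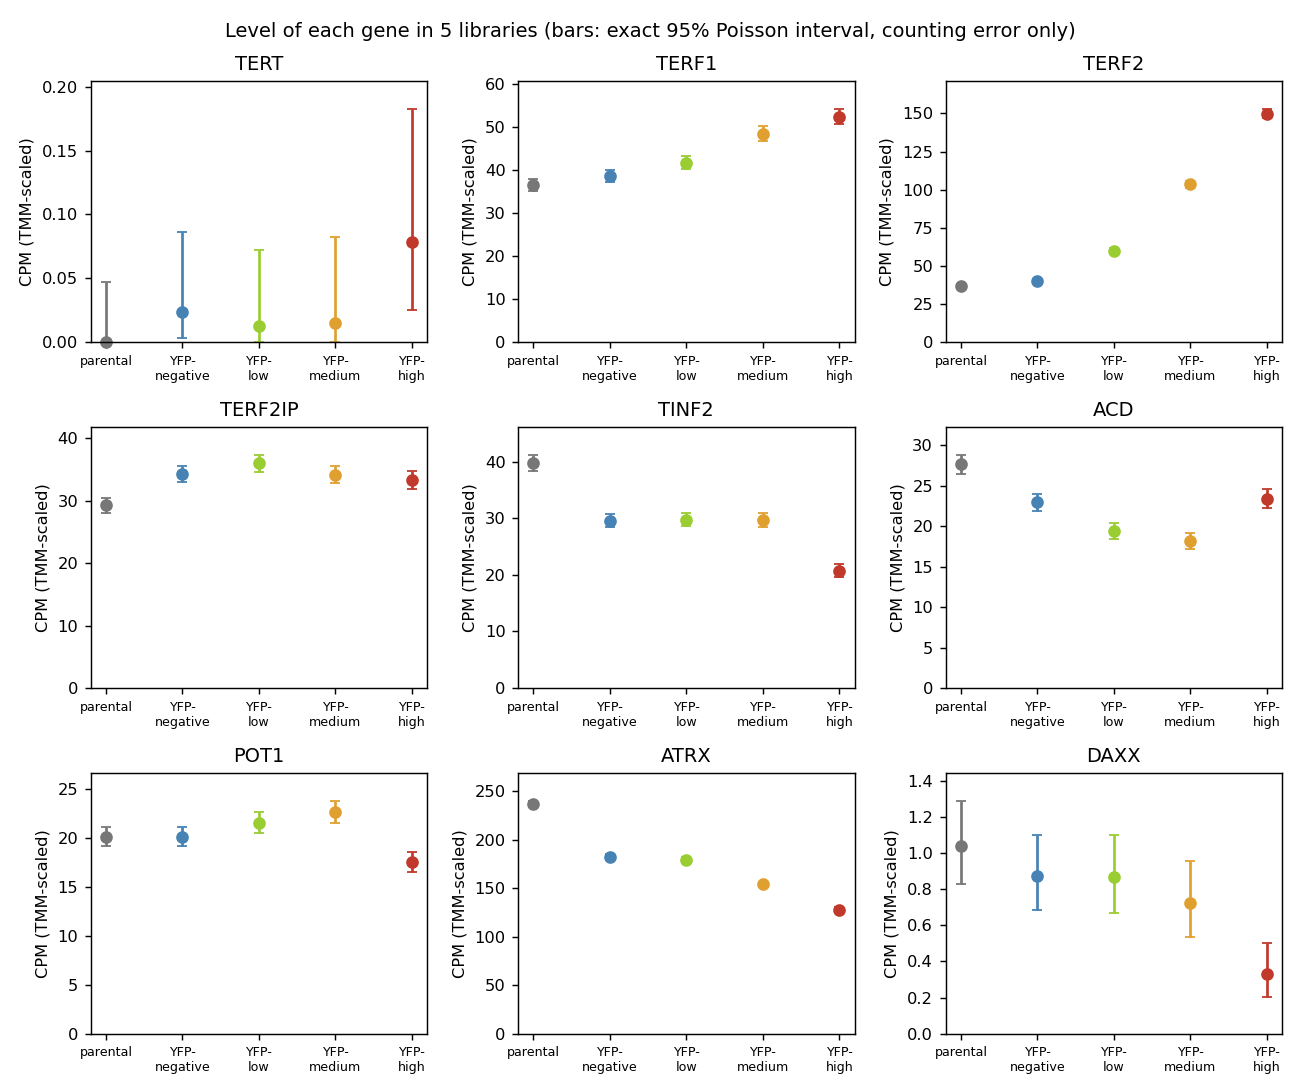
CPM of the 9 genes (y axes, each from 0) in the 5 libraries (x axes, from parental to YFP-high); points are single libraries and bars exact 95% Poisson intervals. TERF2 lies at 150 CPM in YFP-high cells against 39.9 CPM in YFP-negative cells, and ATRX at 128 CPM against 182 CPM.

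TERT, on chromosome 5, had 0 reads in parental cells, 2 in the YFP-negative, 1 in the YFP-low, 1 in the YFP-medium and 5 in the YFP-high fraction. The libraries thus lie between no read and 0.0782 CPM, and for the zero in parental cells the floor of 3 reads is 0.0380 CPM, while the upper end of the exact interval is 0.0468 CPM. The ratio of YFP-high to YFP-negative cells was 3.26, with a counting interval of 0.534 to 34.3, so a difference from YFP-negative cells was not detectable at this depth. Against the 0 reads of parental cells, the interval for the 5 reads of YFP-high cells began at a ratio of 1.13 and had no upper end. TERT failed the filter on low counts and enters no count of called genes. TERC, the RNA template of telomerase, is listed at 0 reads in all 5 libraries. Whether these libraries and their annotation could count TERC was not tested.

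The TERT promoter is shown because it belongs to a gene with almost no reads whose known regulators are described further on. Promoter windows of 300 bases from RefSeq, on build GRCh38.p14, were available here for 5 of the 9 genes. They run from 250 bases before to 50 after the start. TERF1, TERF2, ATRX and DAXX had no entry in the set of windows used, so their promoters were not searched. The windows were searched on both strands for the E2F letters TTTCCCGC, TTTGGCGC, TTTCGCGC and TTTGCCGC, for the E-box CACGTG bound by MYC and USF factors, and for the GC box GGGCGG bound by SP1. Of 35116 windows of this length, 3.31% held E2F letters, 7.26% an E-box and 45% a GC box. The TERT window held 1 E-box, which starts 163 bases before the transcription start, 3 GC boxes and no E2F letters. The stretch chr5:1295169-1295318, minus strand, runs from 250 to 101 bases before the start, with a GC box (read on the other strand as CCGCCC) and the E-box in capitals:
TERT: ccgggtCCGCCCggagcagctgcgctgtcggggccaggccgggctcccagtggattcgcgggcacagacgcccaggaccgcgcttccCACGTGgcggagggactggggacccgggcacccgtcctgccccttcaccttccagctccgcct
A match is a description of letters, not a bound site.

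TERF1 and TERF2 bind the double-stranded telomere repeat as dimers; TERF1 limits telomere length and aids replication through the repeats, and TERF2 folds the end into a protected loop and prevents end-to-end fusion. Reads of TERF2, on chromosome 16, numbered 2902 in parental cells, 3329 in the YFP-negative, 4637 in the YFP-low, 7007 in the YFP-medium and 9576 in the YFP-high fraction. No 2 of the fractions had overlapping counting intervals, and YFP-negative cells lay 1.08-fold (1.03 to 1.14) above parental cells. TERF2 rose 3.75-fold in YFP-high against YFP-negative cells (3.61 to 3.91), a log2 ratio of 1.90. It was the 1 gene called higher among the 8, none was lower, and of all analysed genes 20.5% were called higher and 11.3% lower there, 31.7% in all (64.4% of the called genes were higher, against 45.7% with total-count scaling). Larger log2 ratios were found for 1250 of the 15109 genes.

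At lower YFP, TERF2 rose 2.59-fold in YFP-medium against YFP-negative cells (2.49 to 2.70), again as the 1 member called of 8, where 9.76% of all genes were called higher and 2.21% lower, 12% in all (81.5% of the called genes were higher, against 58.0% with total counts). In YFP-low cells TERF2 was 1.502-fold the YFP-negative level (1.44 to 1.57), short of the size rule. There 0 of 8 members were called, and of all genes 2.11% were higher and 0.0463% lower, 2.16% in all. E2F1, with construct and own reads not told apart, had 163 CPM in YFP-low cells, against 105.98 CPM in YFP-negative cells. By step, TERF2 had ratios of 1.73 in YFP-medium over YFP-low (1.66 to 1.79) and 1.45 in YFP-high over YFP-medium (1.41 to 1.49). In YFP-medium against YFP-low cells 0 of 8 members were called, and of all genes 2.71% were higher and 0.185% lower, 2.89% in all. In YFP-high against YFP-medium cells 0 of 8 were called, and of all genes 9.25% were higher and 1.33% lower, 10.6% in all.

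Genes whose profile was most like that of TERF2 were sought by the distance of log2 CPM, centred per gene, over all 5 libraries among 12233 genes with at least 5 CPM. The nearest were C9orf3, CCDC165 and SCAF4, at distances of 0.0853, 0.0995 and 0.103 on the log2 scale. SCAF4, a binder of the RNA polymerase II tail, had 253 CPM in YFP-high and 72.0 CPM in YFP-negative cells. C9orf3 had 53.5 CPM in YFP-high and 13.7 CPM in YFP-negative cells, and CCDC165 had 196 CPM against 54.3 CPM.

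**Figure D2:**
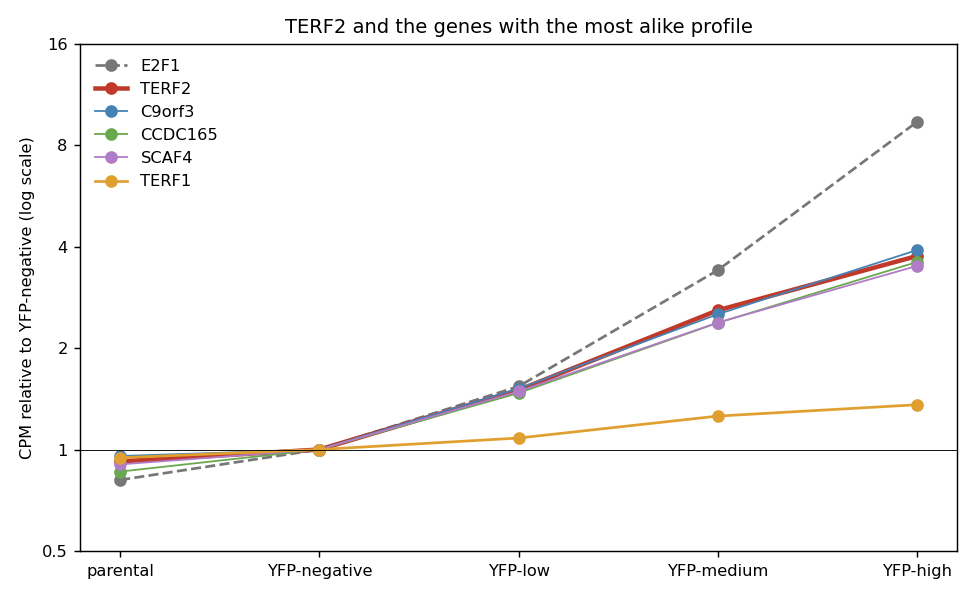
CPM relative to YFP-negative (y axis, log scale) in the 5 libraries (x axis) for TERF2, E2F1, TERF1 and the 3 genes with the profile nearest to TERF2. TERF2 and E2F1 lie close together in YFP-low and apart above it: in YFP-high TERF2 is at 3.75-fold and TERF1 at 1.36-fold, while E2F1 has 996 CPM against 105.98 CPM in YFP-negative.

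TERF1, on chromosome 8, had 36.4 CPM in parental cells, 38.5 in the YFP-negative, 41.6 in the YFP-low, 48.4 in the YFP-medium and 52.3 in the YFP-high fraction. The order is that of TERF2, over a narrower range. TERF1 in YFP-high was 1.36-fold the YFP-negative level (1.29 to 1.43), short of the size rule. TERF1 and TERF2 were higher in each gate than in the one below it, with intervals that excluded no change, as were 15.6% of all analysed genes. None of the 8 was lower in each gate than in the one below, as 15.2% of genes were; with DESeq2 size factors ATRX was, beside 15% of genes, and with total counts ATRX and TINF2 were, beside 26.1% of genes. With total-count scaling TERF2 alone was higher at each gate, with 11% of genes; TERF1 then had a log2 ratio of 0.02 in YFP-low and of 0.17 in YFP-high against YFP-negative cells. GENCODE 29 lists 5 TERF1 pseudogenes, TERF1P1 to TERF1P5, so reads that could belong to a copy are uncertain.

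TERF2IP, the human RAP1, enters shelterin by binding TERF2. TERF2IP had 29.3 CPM in parental cells, 34.3 in the YFP-negative, 36.0 in the YFP-low, 34.2 in the YFP-medium and 33.3 in the YFP-high fraction. The 4 fractions lay between 33.3 and 36.0 CPM, and YFP-high was 0.973-fold the YFP-negative level (0.919 to 1.03). With deposited TPM, which allow levels of different genes to be compared, TERF2 had 2.84 times the level of TERF2IP in YFP-high and 0.735 times in YFP-negative cells. TERF2IP overlaps KARS on the opposite strand, with 14293 to 22582 reads, and whether counting used strand is not stated, so reads of the pair may not be told apart.

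TINF2 (TIN2), on chromosome 14, holds TERF1, TERF2 and ACD together. TINF2 had 39.8 CPM in parental cells, 29.6 in the YFP-negative, 29.8 in the YFP-low, 29.7 in the YFP-medium and 20.7 in the YFP-high fraction. The first 3 fractions thus had overlapping intervals, and YFP-high stood apart below them. TINF2 in YFP-high was 0.701-fold the YFP-negative level (0.655 to 0.749). The distance between YFP-negative and parental cells was of similar size, a ratio of 0.742 (0.704 to 0.783), and YFP-high had 0.520-fold the parental level (0.487 to 0.555), a log2 ratio of -0.93 that stayed short of the size rule. With total-count scaling, deposited TPM or a 1.5-fold rule TINF2 was called lower in that comparison.

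ACD (TPP1), on chromosome 16, carries POT1 to the telomere and is the docking site of telomerase. ACD had 27.7 CPM in parental cells, 22.9 in the YFP-negative, 19.4 in the YFP-low, 18.1 in the YFP-medium and 23.4 in the YFP-high fraction. Its lowest levels were in YFP-medium and YFP-low, which overlapped, and YFP-high and YFP-negative cells overlapped, with a ratio of 1.02 (0.952 to 1.09). YFP-high was 1.29-fold the YFP-medium level (1.19 to 1.39), and YFP-medium 0.790-fold the YFP-negative level (0.735 to 0.850). With total-count scaling the log2 ratio of YFP-high to YFP-negative cells turned from 0.03 to -0.24. ACD was the only 1 of the 5 genes with a promoter window that held E2F letters, so its sequence is shown. The stretch chr16:67660251-67660410, minus strand, runs from 150 bases before to 10 bases after the start, with 2 GC boxes and, at its end, GCGGGAAA, which reads TTTCCCGC on the other strand, in capitals:
ACD: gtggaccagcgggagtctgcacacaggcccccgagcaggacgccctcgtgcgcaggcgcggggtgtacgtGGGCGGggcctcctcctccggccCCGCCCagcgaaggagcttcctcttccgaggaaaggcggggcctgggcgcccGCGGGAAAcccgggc
In GENCODE 29, ACD also overlaps CARMIL2 on the opposite strand.

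POT1, on chromosome 7, covers the overhang and keeps the ATR kinase from responding to it. POT1 had 20.1 CPM in parental cells, 20.1 in the YFP-negative, 21.5 in the YFP-low, 22.6 in the YFP-medium and 17.5 in the YFP-high fraction. The level was highest in YFP-medium, whose interval overlapped that of YFP-low, and YFP-high was 0.773-fold that level (0.715 to 0.836). Against YFP-negative cells the ratio of YFP-high was 0.870 (0.806 to 0.939). POT1-AS1 lies on the opposite strand.

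By TPM, the makeup of shelterin transcripts shifted towards TERF2. The 6 genes summed to 183 TPM in parental cells, 180 in the YFP-negative, 195 in the YFP-low, 222 in the YFP-medium and 251 in the YFP-high fraction. TERF2 made up 16.9%, 18.8%, 25.4%, 36.6% and 46.4% of these sums in the same order. By these TPM TERF2 was the most abundant of the 6 in all 3 YFP-positive fractions, and in YFP-negative cells it came after TERF2IP and TERF1. TERF2 had 2.66 times the TPM of TERF1 in YFP-high cells (2.56 to 2.77), 1.99 times in YFP-medium (1.91 to 2.07), 1.34 times in YFP-low (1.28 to 1.40) and 0.963 times in YFP-negative cells (0.918 to 1.01). These intervals do not overlap between the 4 fractions. Levels of different genes, and their order, rest on the lengths behind the deposited TPM. With exon lengths of GENCODE 29, an alternative chosen after seeing the data, TERF2 had 4.50 times the level of TERF1 in YFP-high and 1.63 times in YFP-negative cells, and made up 44.2% of the 6 genes in YFP-high and 16.5% in YFP-negative cells. TERF2 was then the most abundant in YFP-high and YFP-medium, came after TINF2 in YFP-low, and was the fourth of the 6 in YFP-negative cells, above TERF1. By deposited TPM, TINF2 and ACD made up 8.14% and 8.16% in YFP-high cells, against 17.7% and 12.2% in YFP-negative cells. POT1 was the least abundant of the 6 in every library, at 9.12 to 11.99 TPM. In bulk RNA, fewer cells that express a gene and less of its RNA per cell cannot be told apart.

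**Figure D3:**
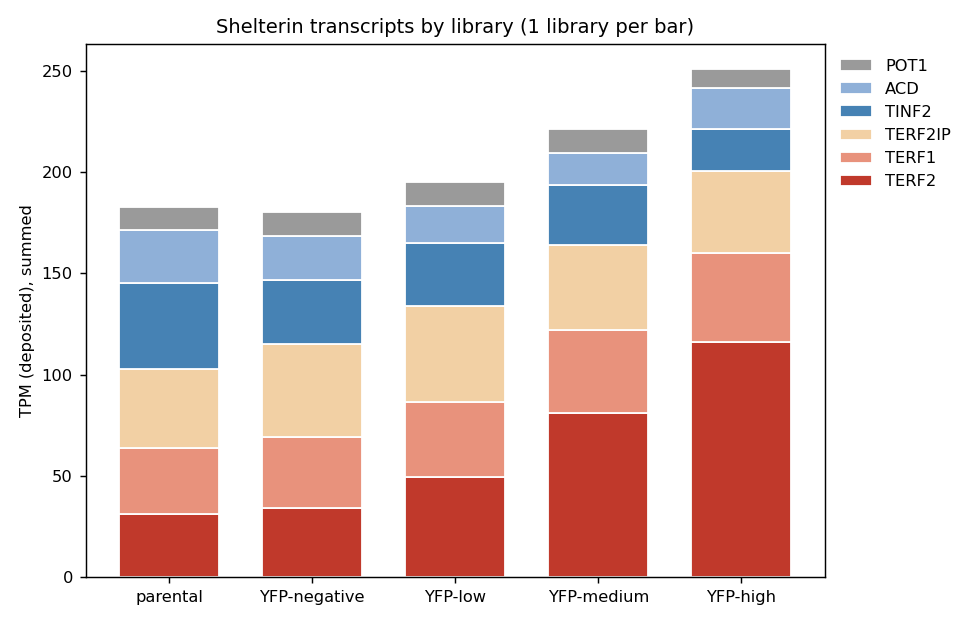
Deposited TPM of the 6 shelterin genes, stacked from 0 (y axis), in the 5 libraries (x axis), 1 library per bar. The TERF2 segment, at the bottom, makes up 46.4% of the YFP-high bar and 18.8% of the YFP-negative bar.

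ATRX, on chromosome X, is a chromatin remodeller that works with DAXX, the H3.3 chaperone; loss of either is a mark of tumours with ALT. ATRX had 237 CPM in parental cells, 182 in the YFP-negative, 179 in the YFP-low, 154 in the YFP-medium and 128 in the YFP-high fraction. YFP-low and YFP-negative cells overlapped, with a ratio of 0.982 (0.960 to 1.00), and each later step was lower. ATRX in YFP-high was 0.701-fold the YFP-negative level (0.682 to 0.720) and 0.539-fold the parental level (0.526 to 0.554), both short of the size rule. The parental comparison gave a log2 ratio of -0.89, and YFP-negative cells already lay at 0.770-fold the parental level (0.754 to 0.787). With total-count scaling the log2 ratio of YFP-high to parental cells was -1.12 and ATRX was called lower. Per length, ATRX had 26.1 TPM in YFP-high cells, against 52.4 TPM in parental cells, where by deposited TPM it was the most abundant of the 9 genes. Gene counts do not show which exons the reads cover, so they do not tell whether the transcript could encode the protein.

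Between YFP-negative and parental cells 0 of 8 members were called, against 2.15% of all genes called higher and 2.93% lower, 5.08% in all. Between YFP-high and parental cells TERF2, at 4.07-fold (3.91 to 4.25), was the 1 member called higher of 8 and none was lower, against 21.3% of all genes called higher and 14.9% lower, 36.2% in all (58.9% of the called genes were higher, against 45.3% with total counts). The median log2 ratio of the 8 in that comparison was -0.22, beside -0.04 over all analysed genes. In YFP-high against YFP-negative cells both medians were negative as well, at -0.12 for the 8 and -0.04 for all genes. The median of the 8 there lies between TERF2IP, at -0.04, and POT1, at -0.20. The 8 include DAXX, whose counts are uncertain, at -0.89 against parental and -0.73 against YFP-negative cells. The medians of the 8 are thus not read as a difference from all genes.

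DAXX, on chromosome 6, had 82 reads in parental cells, 73 in the YFP-negative, 67 in the YFP-low, 49 in the YFP-medium and 21 in the YFP-high fraction. The counts were lower with each gate, but only YFP-high lay apart from YFP-negative cells, at 0.376-fold (0.219 to 0.617); the log2 ratio of -0.73, held down by the pseudocount, was short of the size rule. DAXX passed the filter through the parental library alone, at 1.04 CPM. In GENCODE 29, DAXX overlaps AL662820.1, a protein-coding gene on the same strand without counts of its own here. The DAXX counts are uncertain as a measure of its expression, for the following reason. Counts and TPM of a gene imply the length by which the authors divided, and for DAXX that length was 6.54 times the exon length in GENCODE 29. For the other 8 genes the same value lay between 0.430 and 1.24, and for 95% of 10976 genes between 0.259 and 1.71; only 19 genes lay as high as DAXX.

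Some neighbours of DAXX had high values too. Of the 4 nearest protein-coding genes on either side, a window narrowed after the values were seen, 7 were in the files. On the side of lower coordinates, RGL2, TAPBP and ZBTB22 had values of 5.97, 6.40 and 6.89, and PFDN6 had 1.58. On the other side KIFC1 had 3.19, and PHF1 and CUTA had 1.81 and 1.54. TAPBP, a gene of antigen loading, had at most 101 reads in a library and RGL2 at most 25. DAXX lies at the edge of the major histocompatibility complex, of which build hg19 holds alternative copies, and the count table puts reads without a unique alignment in a class of their own. The part of this in the order of the DAXX counts was not tested.

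**Figure D4:**
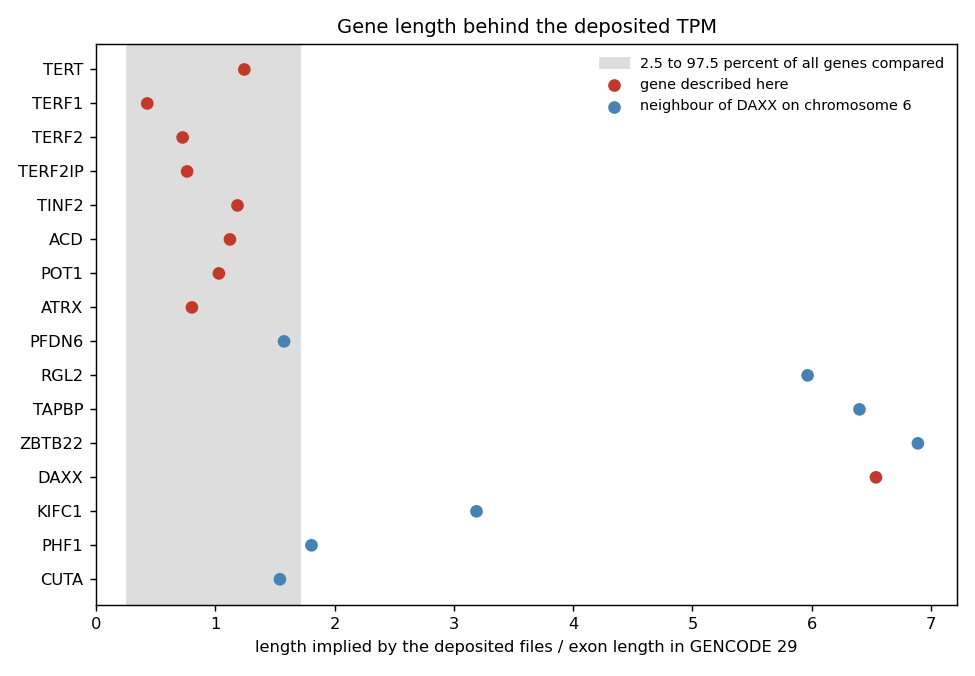
Length implied by the deposited counts and TPM over the exon length in GENCODE 29 (x axis, ratio) for the 9 genes and 7 neighbours of DAXX (rows); the grey band spans the middle 95% of 10976 genes. DAXX, at 6.54, and 3 of its neighbours stand far right of the band, KIFC1 and PHF1 lie less far outside it, and the other 8 genes lie within it.

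Other genes of telomere maintenance were counted by lists, in YFP-high against YFP-negative cells unless another comparison is named. The counts stand beside 20.5% of all analysed genes called higher and 11.3% called lower, and none of them is read as particular to a list. Of 12 analysed genes of the telomerase holoenzyme and its assembly, 0 rose, 2 fell and 10 were neither (all genes: 20.5% higher, 11.3% lower), with a median log2 ratio of -0.45 beside -0.04 for all genes. TEP1, a telomerase- and vault-associated protein, fell 3.03-fold (2.87 to 3.21), to 24.6 CPM in YFP-high cells against 74.7 CPM in YFP-negative cells. NAF1, an assembly factor of the box H/ACA particle, fell 2.35-fold (2.14 to 2.58). The ATPase RUVBL1 and the assembly chaperone SHQ1 had log2 ratios of -0.96 and -0.69. Against parental cells TEP1 was the 1 gene of this list called, where 36.2% of all genes were called. In YFP-medium and YFP-low against YFP-negative cells none of the 12 was called, and the list median was -0.17 and -0.08. Of all genes, 12% and 2.16% were called there, with medians of -0.01 and -0.0008.

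The CST complex, which ends telomere extension and fills in the complementary strand, had 2 analysed genes. Of these 1 fell (all genes: 20.5% higher, 11.3% lower). CTC1 fell 3.61-fold (3.26 to 4.00), with 7.18 CPM in YFP-high and 25.9 CPM in YFP-negative cells. OBFC1 (STN1) had a log2 ratio of -0.53. TEN1 was not analysed here. Against parental cells CTC1 was also called lower, as were 14.9% of all genes. The list median there was -0.78, beside -0.04 for all genes.

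Of 19 shelterin-associated and telomere end factors, 1 rose, 1 fell and 17 were neither (all genes: 20.5% higher, 11.3% lower), with a median of -0.19. DCLRE1B (Apollo), a nuclease that TERF2 brings to telomeres, rose 2.51-fold (2.43 to 2.60). DCLRE1B had 68.9 CPM in parental cells, 68.5 in the YFP-negative, 99.9 in the YFP-low, 134 in the YFP-medium and 172 in the YFP-high fraction, in the order of the gates. RAD50, of the complex that trims and senses ends, fell 2.03-fold (1.91 to 2.15), just past the rule; DESeq2 size factors or a pseudocount of 2 CPM ended that call. Its partner MRE11A and the telomere repeat binder HMBOX1 had log2 ratios of -0.86 and -0.92.

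Of 22 factors of recombination-based lengthening, 1 rose, 5 fell and 16 were neither (all genes: 20.5% higher, 11.3% lower), with a median of -0.13 (-0.51 against parental cells). RMI2, of the BLM dissolvase complex, fell 3.71-fold (3.13 to 4.41). RMI2 also fell in YFP-negative against parental cells, with 9.58 CPM against 26.3 CPM. SMARCAL1, a fork-remodelling enzyme, fell 2.45-fold (2.26 to 2.67), and SP100, a component of PML bodies, 2.29-fold (2.15 to 2.45). NR2F2, an orphan nuclear receptor reported at ALT telomeres, rose 2.25-fold (2.18 to 2.33) with 148 CPM in YFP-high and 65.6 CPM in YFP-negative cells; in YFP-medium it had 55.8 CPM. With total-count scaling NR2F2 had a log2 ratio of 0.90 and was not called. The other genes called lower, PML and TSPYL5, were named after their values were seen.

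Of 16 genes of H3.3 and heterochromatin, 3 rose, 0 fell and 13 were neither (all genes: 20.5% higher, 11.3% lower). The median was 0.38, beside -0.04 for all genes. The list also holds genes of the other H3.3 chaperone complex, so it is not limited to partners of ATRX and DAXX. HIRA, core of the other H3.3 chaperone complex, rose 2.31-fold (2.25 to 2.37), and its partner UBN1 2.23-fold (2.17 to 2.29). TRIM28, a corepressor of heterochromatin, rose 2.16-fold (2.12 to 2.21), and the histone chaperone ASF1A had a log2 ratio of 0.98. In YFP-medium against YFP-negative cells 0 of 16 were called and the median was 0.34. Of all genes, 12% were called there, with a median of -0.01. With total-count scaling in YFP-high against YFP-negative cells none of the 16 was called higher: HIRA, UBN1 and TRIM28 had log2 ratios of 0.94, 0.88 and 0.84, MORC3 and KDM4B, named after their values were seen, were called lower, and the median was 0.11, beside -0.30 for all genes. Of all genes, 35.0% were called in either direction with total counts. With deposited TPM the TRIM28 call was lost.

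Of 13 regulators of TERT transcription, 2 rose, 1 fell and 10 were neither (all genes: 20.5% higher, 11.3% lower), with a median of 0.01. MYC, which binds the E-box and activates TERT, fell 2.71-fold (2.61 to 2.82), and was called lower in YFP-medium cells too. MXD1, which competes with MYC for its partner MAX, rose 2.55-fold (2.13 to 3.06), to 5.68 CPM in YFP-high cells against 2.23 CPM in YFP-negative cells. WT1, a zinc finger factor reported to repress TERT, rose 6.82-fold (6.36 to 7.31), and the E-box binder USF2 had a log2 ratio of 0.99. WT1 was also called higher in YFP-negative against parental cells, with 11.4 CPM against 5.16 CPM, as were 2.15% of all genes. The MXD1 call was lost with total counts, at a log2 ratio of 0.94, and with a pseudocount of 2 CPM or deposited TPM; the list median with total counts was -0.26, beside -0.30 for all genes.

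**Figure D5:**
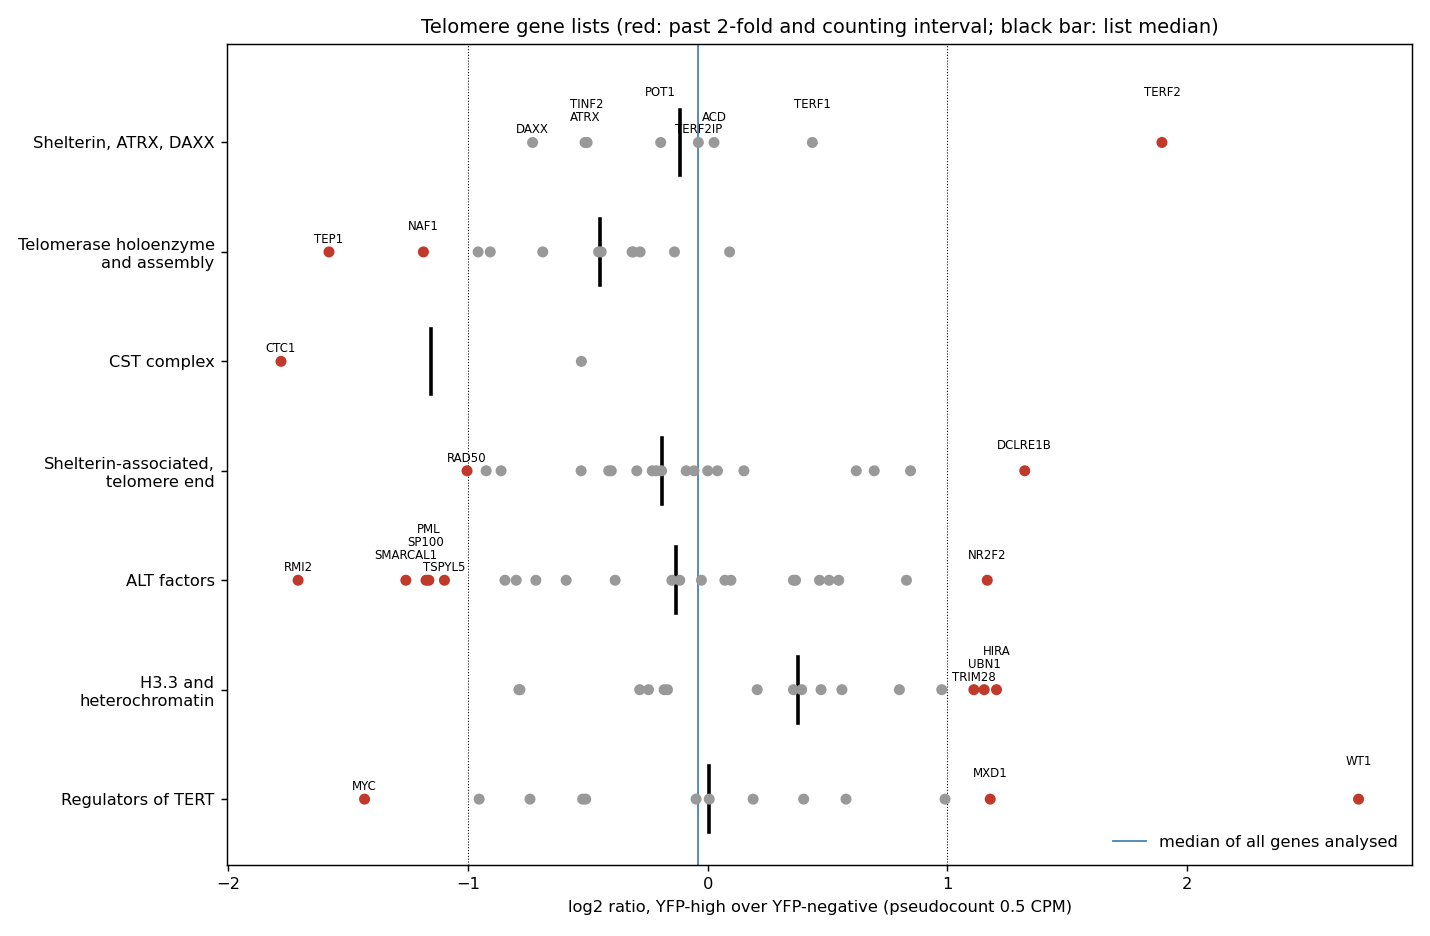
Log2 ratio of YFP-high over YFP-negative (x axis) for the 8 analysed genes and 6 telomere gene lists (rows); each point is a gene, red points passed 2-fold and the counting interval, black bars are row medians and the blue line is the median of all genes. TERF2 at 1.90 stands apart from the other members, and the H3.3 and heterochromatin list has its median at 0.38, right of the blue line.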

How the data were processed

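The authors deposited raw read counts per gene name and, in a second table, TPM scaled to 1000000 per library. Per the submitters' processing notes, HTSeq 0.6.0, HISAT2 2.0.3, Trimmomatic 0.36, bcl2fastq, CASAVA 1.8.2 and build hg19 were used; their order and settings, the annotation, the strand setting and the tool behind the TPM are not stated there. Rows naming no gene (the 5 HTSeq classes and 1 unnamed row, 22.3% to 24.3% of counted reads) were left out. Intervals cover counting error only, since each group has 1 library. PCR copies of a molecule are not independent, so the intervals may be too narrow.

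Counts were scaled by TMM in edgeR 4.0.16 (R 4.3.3). Ratios are the first-named library over the other; log2 ratios carry a pseudocount of 0.5 CPM, which understates changes of low genes, and folds do not. Intervals are Poisson for levels and Clopper-Pearson for ratios. Simulated libraries served as a check of the code alone. Alternatives used DESeq2 1.42.0 size factors, total counts, other filters, another pseudocount, TPM (size rule without an interval), a 1.5-fold rule and the parental baseline. Lists name their 4 largest changes with at least 5 CPM. The members and lists were chosen with earlier results of these data known. Overlaps and lengths come from GENCODE 29, promoters from RefSeq (GRCh38.p14). Scripts ran in Python 3.11.15 with scipy 1.17.1, numpy 2.4.6, matplotlib 3.10.9 and pandas 2.3.3. SLX4IP was matched under the symbol C20orf94 after the files were seen. One neighbour of DAXX is not reported here, and the window of neighbours was narrowed to leave it out after the values were seen.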

Additional observations from a re-analysis of the deposited data

How the results depend on the processing

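TERF2 was called higher in YFP-high and YFP-medium against YFP-negative, and in YFP-high against parental cells, under every alternative run. Against TMM, scaling by total counts shifted the all-gene median by -0.26 (log2) in YFP-high and -0.21 in YFP-medium against YFP-negative cells, and the share called higher among called genes was 45.7% in place of 64.4% in the first; TPM moved the first by -0.13 and the second by -0.11. TPM calls used the size rule without a counting interval, so they differ from the others in both scaling and rule; the share called higher was then 69.4% in place of 81.5% in YFP-medium and 81.6% in place of 97.9% in YFP-low against YFP-negative cells, and 81.8% in place of 93.6% in YFP-medium against YFP-low cells. In YFP-high against parental cells, 4 of the 8 genes were called with total counts (TERF2 higher; TINF2, ATRX and DAXX lower), 4 with the 1.5-fold rule and 2 with TPM, beside 38.7%, 58.2% and 37.0% of all genes; DAXX passed the filter through the parental library alone. The 1.5-fold rule called 2 genes in YFP-high against YFP-negative (TERF2 and DAXX) and 1 in YFP-medium against YFP-low (TERF2), beside 54.7% and 13.2% of all genes. Of the lists in YFP-high, the telomerase list had 4 calls with total counts, 4 with TPM, 5 with the 1.5-fold rule and 1 with the parental baseline. The telomere end list had 1 with DESeq2 size factors, 1 with a pseudocount of 2 CPM, 4 with total counts and 7 with the 1.5-fold rule. The regulators of TERT had 6 with the 1.5-fold rule and 5 with the parental baseline. The 1.5-fold rule gave 11 for recombination factors and 7 for H3.3 and heterochromatin genes. These lists held 12, 19, 13, 22 and 16 analysed genes under TMM, in the order named. Of all genes, 35.0% were called with total counts, 32.4% with TPM, 54.7% with the 1.5-fold rule and 36.2% with the parental baseline. DESeq2 size factors gave 31.7%, and a pseudocount of 2 CPM gave 23.7%. With total counts all 3 genes called higher among the H3.3 and heterochromatin genes, NR2F2 and MXD1 lost their calls. With the parental baseline NAF1, SP100, UBN1 and TRIM28 lost theirs. No called member changed direction, and 18 of 402 values of members under an alternative changed sign, all of genes not called. No paired analysis was possible because each group has 1 library.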
